A study of Mus musculus with 2 samples.

Results

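The miR-199 and miR-214 genes of the mouse are Mir199a-1, Mir199a-2, Mir199b and Mir214. All 4 were found by symbol among the 2202 miRNA genes of the count tables. Small RNA was sequenced from the hippocampus of B6CASTF1/J males, first-generation offspring of C57BL/6J and CAST/EiJ parents, at an age of 14 days. The labels name no treatment or second condition, and the series has 1 group with 2 samples labelled as biological replicates. Each label lists 3 males by number but does not say how their tissue was combined, and both carry the same donor identifier. The spread between the samples may therefore be partly technical.

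Small RNA reads were counted per hairpin gene, with both arms of a hairpin together, so levels refer to genes and not to single mature miRNAs. Levels are counts per 1000000 counts on miRNA genes (CPM). Replicate 1 held 3793934 such counts, so that 1 count was worth 0.264 CPM. Replicate 2 held 2554997, so that 1 count was worth 0.391 CPM. Reads that mapped to several places were given to no gene. They made up 26.3% of the reads in replicate 1 and 37.5% in replicate 2, next to 27.5% and 35.3% that were assigned to a miRNA gene. Reads counted as unmapped differed more, at 41.3% in replicate 1 and 20.7% in replicate 2.

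The miR-199 and miR-214 genes are known from mesenchyme, fibroblasts and the walls of vessels more than from neurons. Mir199a-2 and Mir214 are processed from Dnm3os, a long non-coding RNA needed for skeletal development in the mouse and activated in mesenchyme by the transcription factor Twist1. A mature miRNA guides the silencing complex to messenger RNAs mainly through its seed, bases 2 to 8 counted from the 5′ end. In dissected brain tissue, mesenchymal miRNAs may come from the meninges, perivascular fibroblasts or mural cells, which are the smooth muscle cells and pericytes around endothelium. The count tables do not separate these sources, and fewer cells of a type cannot be told apart from less RNA per cell.

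The 4 hairpins are shown because their shared sequence bears on what each count measures. They are RefSeq sequences (GRCm38.p6), and capitals mark bases that lie in a stretch of at least 20 nucleotides held by another of the 4.
Mir199a-1: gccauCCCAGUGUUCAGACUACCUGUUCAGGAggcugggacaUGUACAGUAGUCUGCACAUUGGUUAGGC
Mir199a-2: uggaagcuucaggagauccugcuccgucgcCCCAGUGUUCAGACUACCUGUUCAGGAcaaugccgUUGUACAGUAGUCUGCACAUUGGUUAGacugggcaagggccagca
Mir199b: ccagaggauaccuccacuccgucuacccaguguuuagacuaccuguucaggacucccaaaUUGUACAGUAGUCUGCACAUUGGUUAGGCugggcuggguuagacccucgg
Mir214: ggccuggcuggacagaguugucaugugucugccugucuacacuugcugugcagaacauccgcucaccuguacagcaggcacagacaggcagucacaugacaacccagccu

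Shared stretches covered 55 of 70 bases of Mir199a-1, 54 of 110 bases of Mir199a-2 and 29 of 110 bases of Mir199b, against 0 of 110 bases of Mir214. Among all 2202 hairpins, each miR-199 gene shared such a stretch with the other 2 miR-199 genes and with no further gene. Mir214 shared one with none, and its longest run in common with a miR-199 hairpin was 7 bases.

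The mature sequences follow, with the seed in capitals.
miR-199a-5p: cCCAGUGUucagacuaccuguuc
miR-199a-3p and miR-199b-3p: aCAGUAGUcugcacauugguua
miR-214-5p: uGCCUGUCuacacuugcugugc
miR-214-3p: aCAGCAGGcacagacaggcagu

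These sequences fall into 4 seeds. The sequence of miR-199a-3p was held by 3 hairpins, those of Mir199a-1, Mir199a-2 and Mir199b, and the sequence of miR-199a-5p by 2, those of Mir199a-1 and Mir199a-2. Both arms of Mir214 were held by its own hairpin alone. The 5′ arm of the Mir199b hairpin differs from miR-199a-5p at 1 base.
Mir199b, 5′ arm: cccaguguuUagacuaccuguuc
The capital marks that base, C10U counted from the 5′ end of miR-199a-5p, which lies outside the seed. A read of a full miR-199 3′ arm thus has at least 3 possible sources among miRNA genes. A full 5′ arm of Mir199b has 1, unless a mismatch is allowed. The number of mismatches allowed in mapping is not given in the sources used here, and places outside miRNA genes were not searched. Of all other RefSeq mature mouse miRNAs, miR-761 alone shared a seed with any of these, that of miR-214-3p, and its gene Mir761 had 0 counts in both libraries.

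In mm10 (GENCODE M21), each of the 4 genes lies within a gene for dynamin, a GTPase that pinches off endocytic vesicles, on the strand opposite to it. Mir199a-1 (ENSMUSG00000065547.1, chr9:21496495-21496564, minus strand) lies in an intron of Dnm2. Mir199b (ENSMUSG00000092807.1, chr2:32318460-32318569, plus strand) lies in an intron of Dnm1. Mir199a-2 (ENSMUSG00000070126.1, chr1:162217814-162217923, plus strand) and Mir214 (ENSMUSG00000065516.1, chr1:162223368-162223477, plus strand) both lie in an intron of Dnm3. They are also both in exons of Dnm3os on their own strand, 5444 bases apart, and each is the miRNA gene nearest to the other. No annotated miRNA gene overlaps any of the 4 on either strand.

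Mir214 held nearly all counts of the 4 genes, with 370 counts in replicate 1 and 60 in replicate 2. These are levels of 97.5 CPM in replicate 1 (95% exact Poisson interval 87.8 to 108) and 23.5 CPM in replicate 2 (17.9 to 30.2). The mean was 60.5 ± 52.4 CPM (SD, n = 2), so the SD was close to the mean. All intervals given here reflect counting error alone, because each is computed from read counts only. Reads were amplified and carry no molecular identifiers, so the intervals may be too narrow even for that error.

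Mir214 reached 2 CPM in both libraries and was the only one of the 4 that did. Among all 2202 genes 426 reached that level (19.3%). The median level of those 426 was 88.3 CPM, and Mir214 ranked 206th of all genes in replicate 1 and 270th in replicate 2. The 4 genes together held 0.00981% of counts in replicate 1 and 0.00243% in replicate 2, with 95% Wilson intervals of 0.00886% to 0.0109% and 0.00189% to 0.00311%. Mir214 made up 99.5% of that sum in replicate 1 and 96.8% in replicate 2. The sum holds only reads assigned to 1 gene, so any miR-199 reads that mapped to several places are not in it.

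The miR-199 genes were at or next to 0. Mir199a-2, which lies in the same non-coding RNA as Mir214, had 1 count in each library, 0.264 CPM in replicate 1 and 0.391 CPM in replicate 2. Mir199b had 1 count in each library as well. Mir199a-1 had 0 counts in both, which by counting error alone allows up to 0.791 CPM in replicate 1 and 1.17 CPM in replicate 2, at 3 counts. That limit applies only to reads with a single place in the genome, and both mature arms of Mir199a-1 stand in at least 1 other hairpin. These values therefore measure reads that could be assigned to 1 gene, and the amount of miR-199 in the tissue cannot be read from them. How many of the multimapping reads were miR-199 was not tested.

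**Figure D1:**
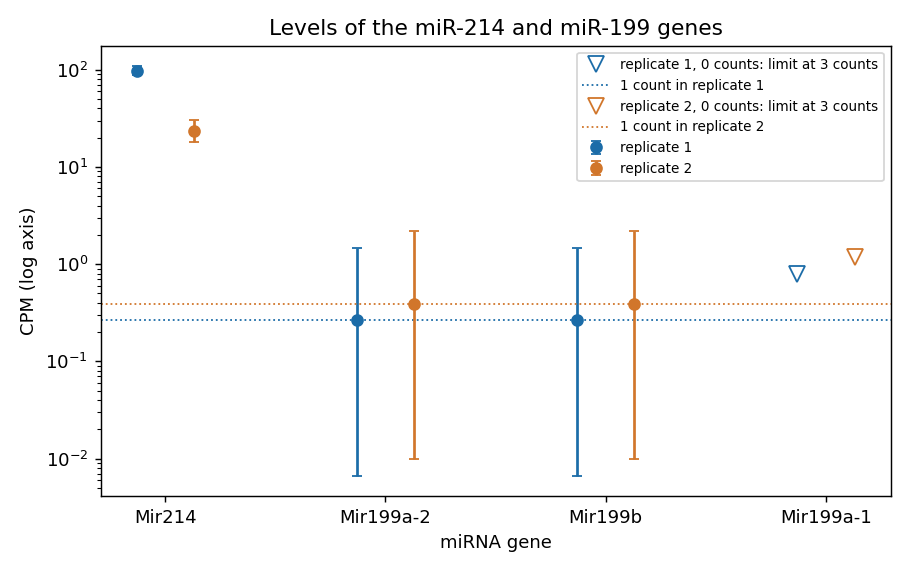
Level of each gene (CPM, log axis) in replicate 1 (blue) and replicate 2 (orange). Bars are 95% exact Poisson intervals, dotted lines mark the level of 1 count, and open triangles the 3-count limit for Mir199a-1 at 0 counts; Mir214 stands at 97.5 and 23.5 CPM, while Mir199a-2 and Mir199b lie on the lines of 1 count.

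In the order of mean levels, Mir214 came first, Mir199a-2 and Mir199b were level, and Mir199a-1 was last. The ranges of Mir214 and Mir199a-2 over the libraries did not overlap, and their means were 60.2 CPM apart, more than the 52.4 CPM of their SDs together. Mir199b at 1 count per library and Mir199a-1 at 0 did not differ beyond counting error, as the Poisson interval of a count of 1 runs from 0.0253 to 5.57. Levels were not divided by length, since a small RNA read covers a whole mature miRNA. Per 100 bases of hairpin, Mir214 was at 88.7 CPM in replicate 1 and 21.3 CPM in replicate 2, and Mir199a-2 and Mir199b each at 0.240 and 0.356 CPM, so the order was the same.

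On the shared non-coding RNA, Mir214 had 370 counts for each count of Mir199a-2 in replicate 1 (95% exact binomial interval 66.0 to 14653). In replicate 2 it had 60 for each (10.4 to 2409). The intervals are wide because a single Mir199a-2 count stands in each ratio. Neither ratio tells how much of each miRNA is made from Dnm3os, since reads of either Mir199a-2 arm have more than 1 source.

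The low counts of the miR-199 genes were set beside those of other genes with shared arms, a grouping made after their values were seen. Of the 1018 genes with a RefSeq mature sequence in their hairpin, 53 had none that was theirs alone. Mir199a-1 and Mir199a-2 belong to this class by both arms. Mir199b belongs to it by miR-199b-3p, its single matched arm. Its 5′ arm has a base of its own but no entry among the RefSeq sequences used. Of these 53 genes, 45 (84.9%) had 2 counts or fewer over both libraries, against 407 (42.2%) of the 965 genes with at least 1 mature sequence of their own, where Mir214 belongs. The class with no RefSeq mature sequence of its own had 7 detected genes (13.2%), and the other class 374 (38.8%). The 3 miR-199 genes were thus among the 45. What lies behind the difference between the classes was not tested.

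**Figure D2:**
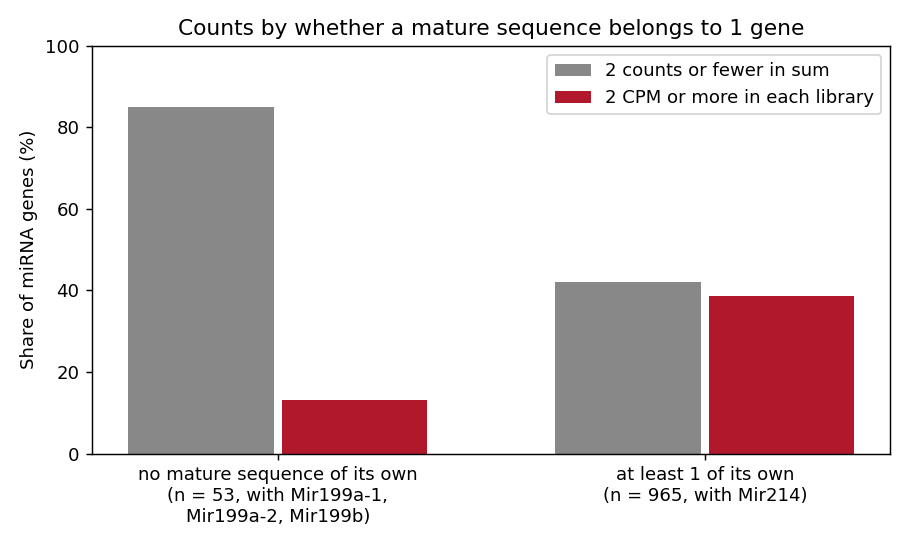
Share of miRNA genes (%) with 2 counts or fewer over both libraries (grey) and with 2 CPM or more in each library (red). The 53 genes with no RefSeq mature sequence of their own, the miR-199 genes among them, stand at 84.9% and 13.2%. Mir199b is placed there by miR-199b-3p, as its 5′ arm had no RefSeq entry. The 965 genes with at least 1, Mir214 among them, stand at 42.2% and 38.8%.

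Mir214 also differed between the libraries. Its level was 4.15-fold higher in replicate 1 than in replicate 2 (95% exact binomial interval 3.15 to 5.55), or 2.03 as a difference of log2(CPM + 0.5). Per total of all reads it was 3.24-fold higher. Its adjusted p was 6.04e-32 in a two-sided exact binomial test that takes the totals of both libraries into account, with p-values adjusted after Benjamini and Hochberg over every gene of 10 or more summed counts. Mir214 was the 1 member with enough counts to be tested. The same test called 264 of 507 genes (52.1%), and 128 (25.2%) as higher in replicate 1, so that a call by itself was common. The test covers counting error in these libraries.

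With 1 library on each side, the data give no independent measure of the spread between replicates for this difference. edgeR's common dispersion over all tested genes corresponds to a coefficient of variation of 0.377, but it comes from the same libraries that are compared. With it, a negative binomial exact test gave Mir214 an unadjusted p of 0.0147. Its adjusted p was 0.573 in that exact test, in which 2 genes of 507 were called and 23 had an unadjusted p under 0.05. These values place Mir214 among the differences of other genes and do not tell whether separate samples of this tissue differ so. In size, 11 of the 507 genes, Mir214 included, were at least as far above replicate 2 as Mir214, and 14 were at least as far apart in either direction. The median absolute log2 ratio of all tested genes was 0.47.

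**Figure D3:**
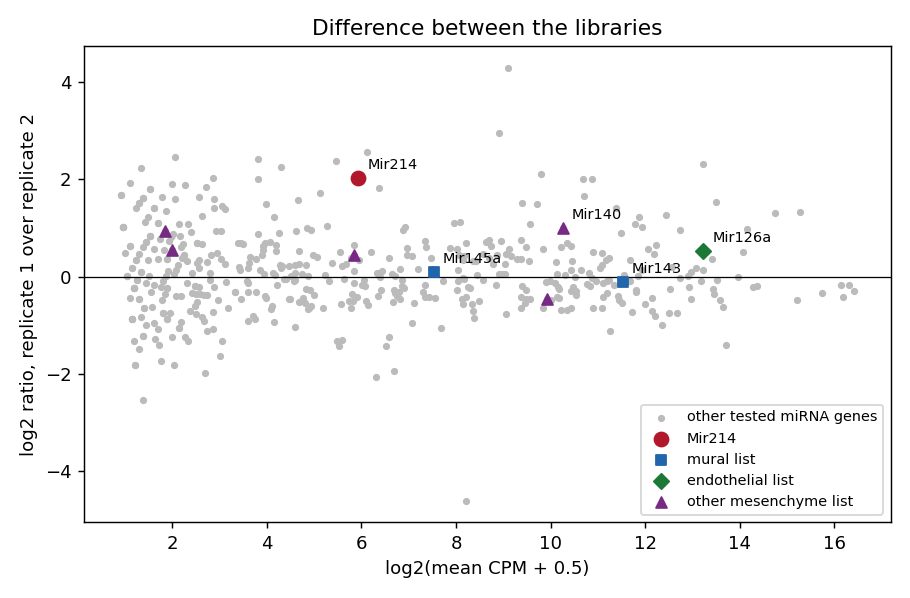
Difference between the libraries (log2 ratio of CPM + 0.5, replicate 1 over replicate 2) against mean level, log2(mean CPM + 0.5), for the 507 tested genes. Mir214 (red) lies at 2.03 on the vertical axis, above the mural genes Mir143 at -0.12 and Mir145a at 0.09, the endothelial Mir126a at 0.53 and Mir140 at 0.99.

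In CPM, the mural marker genes stood at similar levels in both libraries. Mir143 and Mir145a, which keep smooth muscle in its contractile state, were the detected members of the mural list. Mir143 stood at 2833 CPM in replicate 1 and 3069 CPM in replicate 2, and Mir145a at 191 CPM and 179 CPM. The ratio of replicate 1 to replicate 2 was 0.923 for Mir143 (adjusted p = 2.59e-07 by the exact binomial test) and 1.07 for Mir145a (adjusted p = 0.392 by the same exact test). Per total of all reads the ratio of Mir143 was lower, at 0.720. The remaining mural gene, Mir145b, had 0 counts. The summed mural level was 3024 CPM in replicate 1 and 3248 CPM in replicate 2. The endothelial Mir126a, from an intron of Egfl7, was at 11308 CPM in replicate 1 and 7829 CPM in replicate 2, a ratio of 1.44. Whether Mir214's ratio differs from those of these genes beyond the spread between replicates was not tested, as 1 library stands on each side.

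Mir214 was lower than the leading vessel wall genes in both libraries. For each 100 counts of Mir143 there were 3.44 counts of Mir214 in replicate 1 and 0.765 in replicate 2, with 95% Wilson intervals of 3.10 to 3.82 and 0.594 to 0.986. Divided by hairpin length, these became 1.97 and 0.438. For each 100 counts of Mir145a there were 51.1 counts of Mir214 in replicate 1 (45.1 to 57.9) and 13.1 in replicate 2 (10.04 to 17.2). Against Mir126a the numbers were 0.862 (0.779 to 0.955) in replicate 1 and 0.300 (0.233 to 0.386) in replicate 2. The intervals of the libraries did not overlap for any of these 3 genes. All 3 comparisons use the same Mir214 counts.

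**Figure D4:**
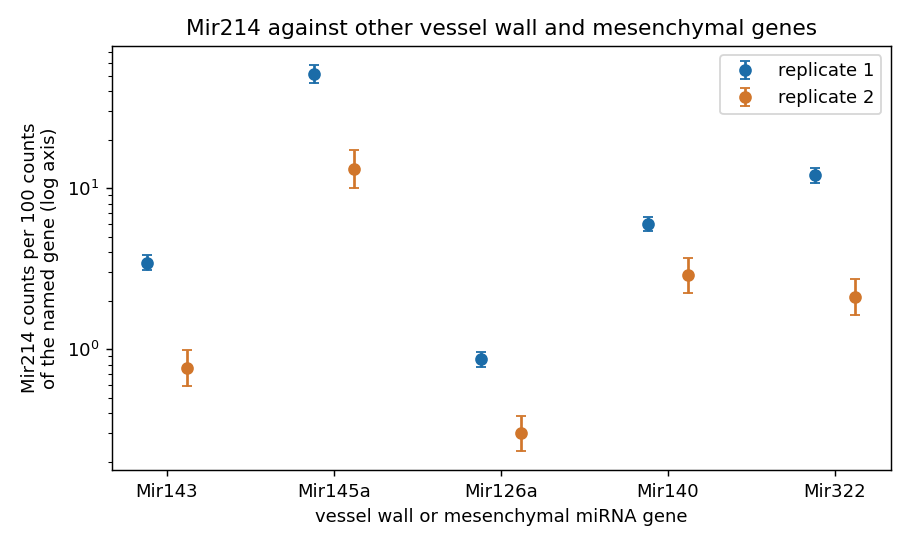
Counts of Mir214 per 100 counts of 5 vessel wall and mesenchymal genes (log axis), in replicate 1 (blue) and replicate 2 (orange), with 95% Wilson intervals. For each gene replicate 1 lies above replicate 2, at 3.44 and 0.765 for Mir143 and 5.97 and 2.86 for Mir140.

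Other genes with a mesenchymal record went in different ways. Mir140, a cartilage miRNA also made elsewhere, stood at 1634 CPM in replicate 1 and 820 CPM in replicate 2, a ratio of 1.99. Mir322, one of a cell cycle cluster on the X chromosome that also holds Mir503, stood at 814 CPM in replicate 1 and 1118 CPM in replicate 2, a ratio of 0.728. Mir503 was at 65.6 CPM and 47.7 CPM. Of the 8 genes in that list 5 were tested, with 2 higher in replicate 1 (Mir140 and Mir503), 1 lower there (Mir322) and 2 not called. Of all 507 tested genes, 52.1% were called, and 25.2% were called as higher in replicate 1. Mir10a and Mir10b, from the Hox clusters, had 16 counts each in replicate 1, and 7 and 5 in replicate 2. Mir196a-1 and Mir196a-2, which share a stretch with each other, had 0 counts. The median log2 ratio of the 5 tested genes was 0.54, beside 0.02 for all 507 tested genes.

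Marker lists of further cell types were read beside Mir214. Calls in each list stand beside the 52.1% of all 507 tested genes that were called, with 25.2% higher in replicate 1. The neuron list was led by Mir149 at 20240 CPM in replicate 1 and 14223 CPM in replicate 2. Next came Mir132 at 17266 CPM and 5947 CPM, and Mir330 at 6418 CPM and 5621 CPM. Of its 12 genes 9 were tested, with 3 higher in replicate 1, which are the 3 just named (Mir330 not per total of all reads, at a ratio of 0.890), 4 lower there and 2 not called. Mir128-1 was the highest of the lower ones, at 4364 CPM in replicate 1 and 7285 CPM in replicate 2, followed by Mir128-2, Mir9-3 and Mir9-1. These share stretches with other genes, as do Mir124a-1, Mir124a-2, Mir124a-3 and Mir9-2, which had at most 12 counts in a library. The 7 genes of the choroid plexus and ciliated list summed to 1980 CPM in replicate 1 and 931 CPM in replicate 2, a ratio of 2.13. Within that list 3 of 4 tested genes were called, all higher in replicate 1 (Mir204 not per total of all reads, where its ratio was 0.996). Mir34c was highest in replicate 1 at 857 CPM, against 109 CPM in replicate 2, Mir204 stood at 743 CPM and 581 CPM and Mir449a at 363 CPM and 225 CPM. Mir449b was at 0. In CPM the 3 called genes lay in the same direction as Mir214, and their part in its difference was not tested.

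The erythroid list went the other way, at 75.4 CPM in replicate 1 and 192 CPM in replicate 2. Its leading gene Mir451a had 41.9 CPM in replicate 1 and 162 CPM in replicate 2, while Mir486 had 24.5 CPM and 12.9 CPM and Mir144 8.96 CPM and 16.8 CPM. All 3 of its genes in the tables were called, 1 higher in replicate 1 and 2 lower, beside 52.1% of all 507 tested genes called. The leukocyte and microglia list was at 1044 CPM in replicate 1 and 1096 CPM in replicate 2, led by Mir150 at 981 CPM and 1047 CPM, Mir142 at 54.6 CPM and 45.8 CPM and Mir223 at 8.17 CPM and 3.13 CPM. Of these, Mir223 was called higher and Mir150 lower in replicate 1. The striated muscle list was at 31.1 CPM in replicate 1 and 37.6 CPM in replicate 2, nearly all from Mir206 at 27.4 CPM and 35.6 CPM. Its 2 tested genes were not called. Mir1a-1, Mir1a-2, Mir133a-1 and Mir133a-2 had 0 counts there, and each shares a stretch with another gene. After Mir206 came Mir499 at 7 and 3 counts and Mir208a at 6 and 2.

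The 3 genes nearest to Mir214 by Euclidean distance over log2(CPM + 0.5) of the 2 libraries were Mir26a-1 (distance 0.381), Mir669l (0.709) and Mir1247 (0.858). Mir26a-1 had 450 counts in replicate 1 and 50 in replicate 2. Mir669l had 486 and 91, and Mir1247 had 279 and 35. Mir26a-1 shares a stretch with Mir26a-2, and Mir669l with 35 other genes, so their counts are uncertain. Likeness over 2 libraries means only a similar level and a similar ratio.

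On the strand opposite to the genes, Mir214 had 2 counts in replicate 1 and 0 in replicate 2, and the 3 miR-199 genes had 0 in both. In the column that ignores strand Mir214 thus had 372 and 60 counts. Mir199b has a further annotated miRNA gene 116 bases away on its own strand, Gm23363, named here after its values were seen. It had 0 counts in replicate 1 and 1 in replicate 2.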

How the data were processed

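The deposited tables, 1 per sample, hold raw counts of reads per miRNA gene, which the authors' deposited notes place on mm10 and GENCODE M21. For the aligner, counting tool, trimming and filters, no statement is given in the sources used here. Each table has 3 count columns without a header, and the larger stranded column was taken as the strand of the gene. A further 4 rows in either file name no gene and were left out of totals and tests. They held 72.5% of reads in replicate 1 and 64.7% in replicate 2. All 2202 identifiers matched the annotation.

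CPM were computed over all miRNA genes, log values as log2(CPM + 0.5), and genes at 2 CPM in each library were called detected. Libraries were compared gene by gene with a two-sided exact binomial test (scipy 1.17.1), at a threshold of 0.05. Its p-values were adjusted after Benjamini-Hochberg over the 507 genes whose summed count reached 10. The simulated data on which the test was tried held counting error alone. That trial therefore says nothing about the spread between replicates. With 1 library on each side, edgeR's quasi-likelihood test could not be fitted. edgeR 4.0.16 gave a common dispersion from 1 residual degree of freedom per gene and TMM factors, and DESeq2 1.42.0 size factors, in R 4.3.3. Python 3.11.15, numpy 2.4.6, pandas 2.3.3 and matplotlib 3.10.9 were also used. Alternatives were other scalings, filters, pseudocounts, detection minimums, denominators, stretch lengths and the column that ignores strand.

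The text names the 4 genes, any gene overlapping or sharing sequence with them, the 3 highest genes of each marker list and the 3 genes nearest to Mir214. Other genes were named after their values were seen. The members and lists were chosen with earlier results of these data known. Mir486b was listed but matched no symbol.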

Additional observations from a re-analysis of the deposited data

How the results depend on the processing

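Mir214 had log2 ratios between 2.01 and 2.05 under other assigned-count scalings, filters, pseudocounts and the column that ignores strand. Totals of all reads, an alternative chosen after seeing the data, lowered every log2 ratio by about the same amount (-0.36). Mir214 then stood at 26.8 per 1000000 reads in replicate 1 and 8.29 in replicate 2, a log2 ratio of 1.64 (adjusted p = 4.01e-21, exact binomial test). Of 21 called genes in the lists, Mir204 (ratio 0.996) and Mir330 (0.890) changed direction under it. Over all binomial settings the adjusted p of Mir214 ranged from 3.41e-32 to 4.01e-21. The negative binomial test with edgeR's common dispersion kept the log2 ratio of 2.03 and gave an adjusted p of 0.573, with 0 members called. That test called 2 of all 507 tested genes, so the absence of a call was common under it. Per 1000000 of all reads, Mir214 averaged 17.6, against 60.5 CPM, and Mir199a-2 and Mir199b each 0.105, against 0.327 CPM, since that denominator also holds unassigned reads. Without replicate 1 the level of Mir214 was 23.5 CPM, and without replicate 2 it was 97.5 CPM. The summed share was 0.00243% and 0.00981% in these cases, and 0.00178% of all reads. With 2 libraries, leaving one out cannot move a mean by more than its SD, so this says nothing about stability. Detection at 1, 5 and 10 CPM gave 1 member each, beside 500, 347 and 315 of all 2202 genes. Stretches of 16, 18 and 22 nucleotides gave as many sharing genes as 20. No paired analysis was possible because the series has 1 group. A single count per library limits the miR-199 values.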
